A study of Mus musculus with 2 samples.

Results

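Vitamin A is turned into retinoic acid and cleared again by a small set of genes, and 9 of them were followed here through the cells of the gut wall: *Rbp4*, *Stra6* and *Lrat* for uptake and storage, *Rdh10* for the first oxidation, *Aldh1a1*, *Aldh1a2* and *Aldh1a3* for the second, *Crabp1* for binding and *Cyp26b1* for breakdown. They are 9 of the 31053 genes in the count files, were listed by name, and were all found in both libraries. The series holds 2 single-cell RNA sequencing (scRNA-seq) libraries of cells sorted from the intestinal lamina propria of C57BL/6 mice at 11 weeks of age, made on a droplet platform that reads the 3′ end of each RNA and tags each molecule with a unique molecular identifier (UMI). Both genotypes carry the ApcMin/+ allele, which gives intestinal adenomas. The ApcMin library has *Lef1* +/+, and the VApcMinL library has *Lef1* fl/fl with Villin-Cre, which acts in the intestinal epithelium and therefore does not target the stromal cells described here. The sort selected against dead cells, Ter119, Epcam and CD45, so that epithelial, immune and erythroid cells are what the sort left behind, and their shares are set by it. The labels name neither the gut segment nor the number of mice.

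Barcodes with at least 3000 UMIs and at most 20% mitochondrial UMIs gave 6599 ApcMin and 6569 VApcMinL cells, the mitochondrial limit having removed 75 and 531. Leaving out the 348 and 345 cells of highest doublet score gave 6251 and 6224 cells, with medians of 10679 and 8940.5 UMIs, out of libraries of 93203061 and 101609269 UMIs. Both libraries shared 18 cell barcodes, against 6.38 if barcodes were drawn independently. Levels are CPM, the UMIs of a gene scaled to 1000000 UMIs of a cell population. Ranges in brackets are exact 95% intervals (Poisson for a level, conditional binomial for a ratio, Clopper-Pearson for a share) and hold counting error alone. Each genotype has a single library, so nothing could be tested across replicates, and genotype cannot be told apart from mouse, dissection or sort. Wherever a pair of values is given, ApcMin comes first and VApcMinL second.

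Retinol travels in blood bound to the carrier encoded by *Rbp4*, and STRA6 takes it up into cells. LRAT stores it as retinyl ester, RDH10 oxidises it to retinal, and the ALDH1A enzymes oxidise retinal to retinoic acid, a ligand of nuclear receptors that CYP26 enzymes degrade. In the gut, retinoic acid made by epithelial, stromal and dendritic cells is known for its part in the homing and differentiation of lymphocytes.

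Most RNA of the pathway lay in fibroblast-like cells, which numbered 3177 and 3578. They held 99.1% and 97.7% of all *Aldh1a3* UMIs, 98.6% and 92.9% of *Lrat*, 98.8% and 98.5% of *Rbp4*, 97.8% and 94.2% of *Aldh1a2*, and 86.7% and 87.0% of *Rdh10*. The exceptions were *Aldh1a1*, with 84.0% in the ApcMin library but 44.0% in the VApcMinL library, where epithelial-like cells held another 50.5%, *Cyp26b1*, with 73.8% and 27.2%, and *Stra6*, with 98.8% and 90.9% in epithelial-like cells. These shares follow the number of cells sorted as well as the level per cell. Epithelial-like cells numbered 43 and 301, and blood endothelial-like cells 104 and 455. The heat map of levels by population shows the levels, in which cell numbers play no part.

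**Figure D1:**
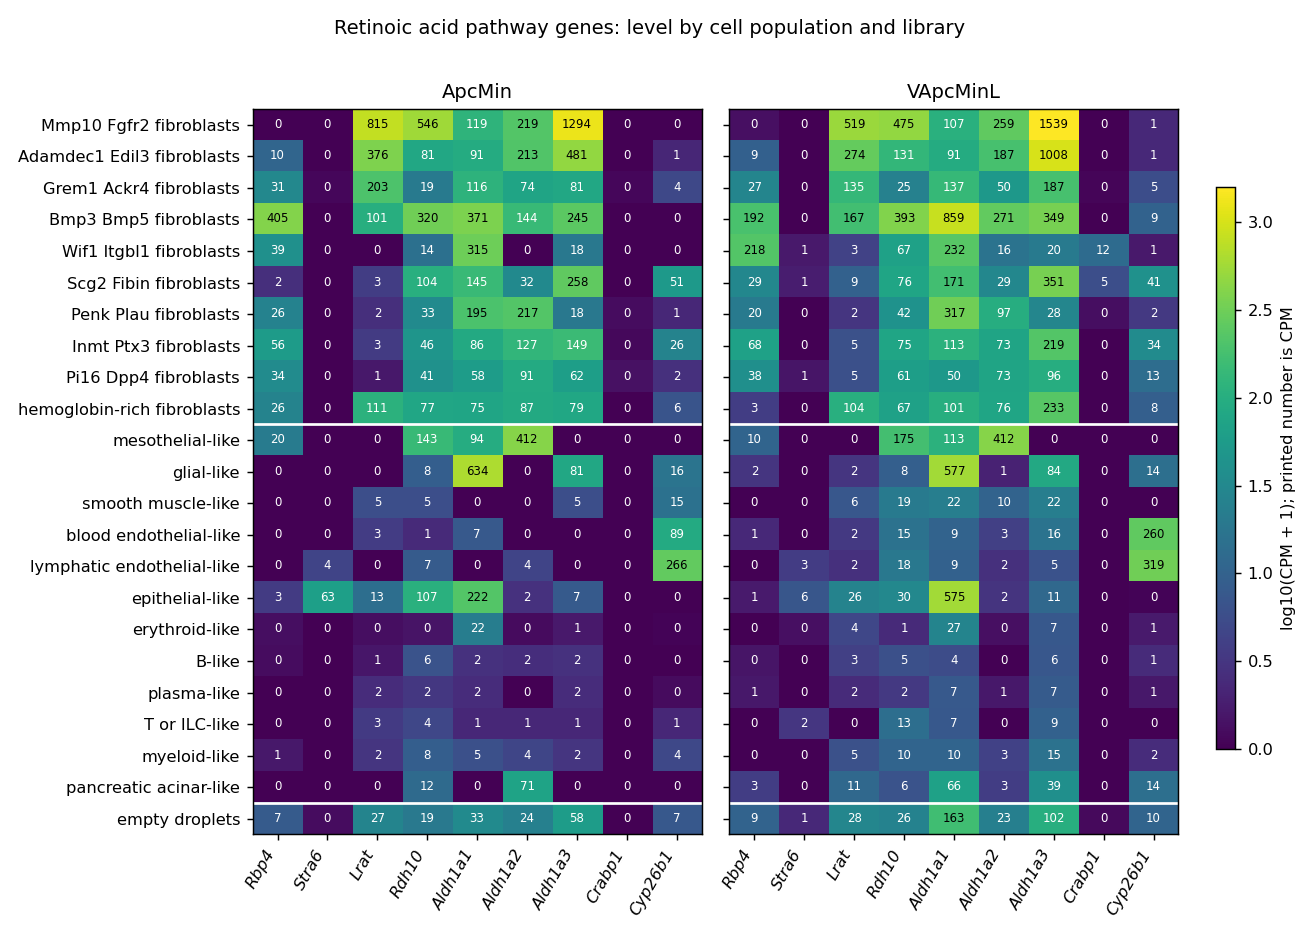
Level of the 9 genes (columns, ordered by role) in the fibroblast-like subsets, the other cell classes and the empty droplets (rows) of both libraries. Colour is log10(CPM + 1) and the printed number is the CPM rounded to a whole number. *Aldh1a3*, *Lrat* and *Rdh10* are highest in the top row, *Cyp26b1* in lymphatic endothelial-like cells, and the rows of B-, plasma-, T or ILC- and myeloid-like cells are at 15.1 CPM or less.

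The fibroblast-like cells were clustered again without the pathway genes, so that the genes described here did not set the subsets, and each subset is called by 2 of its leading genes. *Pdgfra*, a receptor that marks gut fibroblasts, was detected in 88.3% of the Mmp10 Fgfr2 cells and in 94.5% of the Adamdec1 Edil3 cells. The Mmp10 Fgfr2 subset held 96 and 305 cells, or 3.02% and 8.52% of the fibroblast-like cells. It also carried RNA of contractile genes, with *Myh11* at 190 and 225 CPM against 1863 and 4509 CPM in smooth muscle-like cells, and 5 and 19 of its cells were named smooth muscle-like when the cells were clustered more finely. The Adamdec1 Edil3 subset held 344 and 809 cells, or 10.8% and 22.6%. Of the other subsets, Penk Plau with 869 and 702 cells and Inmt Ptx3 with 766 and 587 were the most numerous, and Bmp3 Bmp5 with 30 and 72 and Wif1 Itgbl1 with 20 and 112 were the smallest apart from 82 and 25 hemoglobin-rich cells.

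*Lrat* (chromosome 3 of GRCm38, 82892579 to 82903973, minus strand) encodes the enzyme that esterifies retinol for storage. It was high in some fibroblast-like subsets and low in others. Its level was 815 CPM (762 to 870) and 519 CPM (493 to 545) in the Mmp10 Fgfr2 subset, 376 (358 to 395) and 274 (262 to 286) in Adamdec1 Edil3, and 203 (193 to 214) and 135 (127 to 143) in Grem1 Ackr4. The 3 subsets kept this order in both libraries, with no overlap of neighbouring intervals. In Bmp3 Bmp5 cells *Lrat* was at 101 (71.7 to 139) and 167 CPM (140 to 199), and in VApcMinL it was there within the counting error of Grem1 Ackr4. Hemoglobin-rich cells had 111 and 104 CPM. In Penk Plau, Inmt Ptx3, Pi16 Dpp4, Scg2 Fibin and Wif1 Itgbl1 cells *Lrat* was at 8.85 CPM or less in either library. After each cell was thinned to 3000 UMIs, *Lrat* was found in 71.9% and 65.6% of the Mmp10 Fgfr2 cells, and the raw shares were 89.6% and 88.5%.

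*Rbp4* (chromosome 19, 38116629 to 38125281, minus strand), the gene of the plasma retinol carrier, followed another pattern and was near absent where *Lrat* was highest, with 0 and 1 UMI in the Mmp10 Fgfr2 cells. In ApcMin it was highest in the Bmp3 Bmp5 subset, at 405 CPM (344 to 475). In VApcMinL that subset had 192 CPM (162 to 226) and overlapped in counting error with the higher Wif1 Itgbl1 subset. The levels of the Bmp3 Bmp5 subset rest on few cells, since the 10 cells with most *Rbp4* held 98.0% and 54.8% of the UMIs of the subset. In Wif1 Itgbl1 cells the libraries stood apart, at 39.4 CPM (19.7 to 70.5, 11 UMIs in 20 cells) and 218 CPM (196 to 243, 337 UMIs in 112 cells). The Inmt Ptx3 subset, at 56.1 and 67.7 CPM, gave the largest share of all *Rbp4* UMIs, 40.9% and 34.0%. Both smaller subsets are led by genes of the cells that lie under the epithelium, such as *Bmp5* and *Wif1*.

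*Stra6* (chromosome 9, 58063788 to 58153996, plus strand), the receptor for the retinol carrier, was almost not detected in stroma, with 1 and 3 UMIs in all fibroblast-like cells. It had 170 UMIs in 43 epithelial-like ApcMin cells and 80 in 301 VApcMinL cells, or 62.7 CPM (53.6 to 72.9) and 6.09 CPM (4.83 to 7.59). A single ApcMin cell held 158 of the 170 UMIs and a single VApcMinL cell 48 of the 80, so the level of this gene is that of a few cells. *Gm16131* overlaps *Stra6* on the same strand, and reads in the overlap can count for either.

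*Rdh10* (chromosome 1, 16105774 to 16133734, plus strand), which converts retinol to retinal, was again highest in the Mmp10 Fgfr2 subset, at 546 CPM (502 to 592) and 475 CPM (451 to 501). The Bmp3 Bmp5 subset came next with 320 (265 to 383) and 393 CPM (349 to 440), and then mesothelial-like cells with 143 (99.5 to 199) and 175 CPM (141 to 215) in only 7 and 32 cells. Adamdec1 Edil3 cells, the second highest for *Lrat* and *Aldh1a3*, were at 81.2 CPM (72.8 to 90.3) and 131 CPM (123 to 139). The other subsets lay between 14.3 and 104 CPM. *Rdh10* was thus highest in the Mmp10 Fgfr2 cells of both libraries, and the Bmp3 Bmp5 cells were separated from them in counting error.

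*Aldh1a3* (chromosome 7, 66390890 to 66427517, minus strand) had the highest level of the 9 genes in any subset. Its level reached 1294 CPM (1227 to 1363) and 1539 CPM (1495 to 1584) in the Mmp10 Fgfr2 cells, of which 93.8% and 94.8% had a UMI after thinning and 100% and 98.4% before. Adamdec1 Edil3 cells followed with 481 (460 to 502) and 1008 CPM (986 to 1031). Scg2 Fibin cells, at 258 and 351 CPM, and Bmp3 Bmp5 cells, at 245 and 349 CPM, did not differ from each other beyond counting error in either library. Penk Plau cells, at 18.2 and 28.1 CPM, and Wif1 Itgbl1 cells, at 17.9 and 20.1 CPM, were lowest, so that the subsets of one class spanned from 17.9 to 1294 CPM in ApcMin. The empty droplets held 57.8 and 102 CPM, and free RNA was estimated as 1.93% and 2.36% of the UMIs of fibroblast-like cells.

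**Figure D2:**
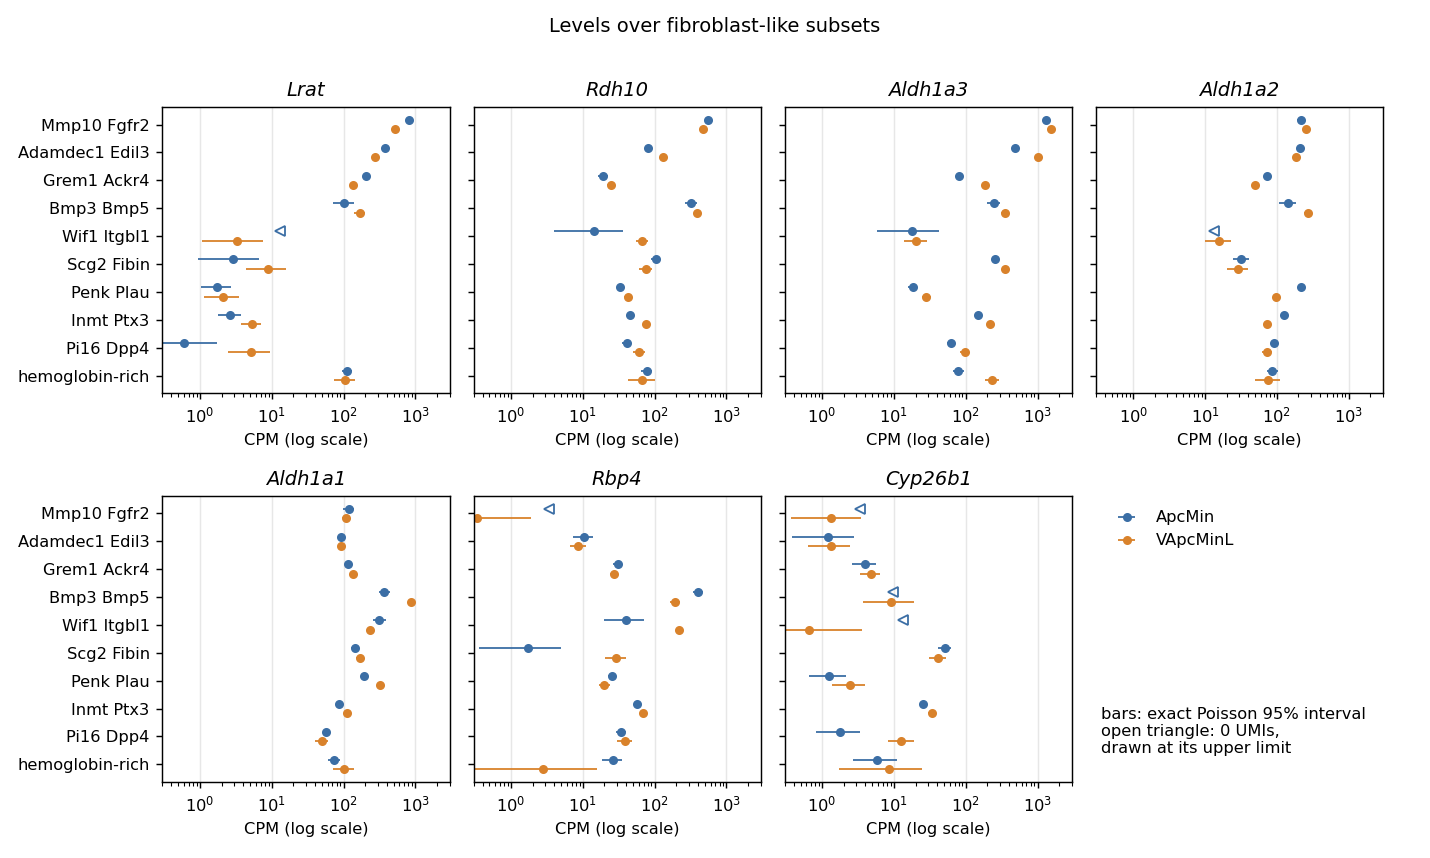
Level in CPM (log scale) of 7 genes over the 10 fibroblast-like subsets, with exact Poisson 95% intervals. Blue is ApcMin and orange VApcMinL. *Lrat*, *Rdh10* and *Aldh1a3* have their highest values in the Mmp10 Fgfr2 cells of both libraries, where *Rbp4* and *Cyp26b1* have 4 UMIs or fewer.

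*Aldh1a2* (chromosome 9, 71215789 to 71296243, plus strand), the main retinoic acid-making enzyme of the embryo, was highest outside the fibroblasts. Mesothelial-like cells had 412 CPM (336 to 501) and 412 CPM (358 to 470), from 7 and 32 cells. Among fibroblast-like subsets the ApcMin order was Mmp10 Fgfr2 at 219 CPM (192 to 249), Penk Plau at 217 (208 to 226) and Adamdec1 Edil3 at 213 (199 to 228), and these did not differ beyond counting error. In VApcMinL, Bmp3 Bmp5 was at 271 CPM (236 to 311), Mmp10 Fgfr2 at 259 (241 to 278) and Adamdec1 Edil3 at 187 (177 to 197), whereas Penk Plau was at 96.6 (89.3 to 104). The leading subset of *Aldh1a2* therefore could not be named from these counts. Wif1 Itgbl1 cells were lowest, with 0 UMIs in 20 cells, whose interval reaches 13.2 CPM, and 15.6 CPM in 112 cells.

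*Aldh1a1* (chromosome 19, 20492715 to 20643465, plus strand) was spread over more cell types than its paralogs. Among subsets it was highest in Bmp3 Bmp5, at 371 CPM (312 to 438) and 859 CPM (794 to 928), and in ApcMin its interval overlapped that of Wif1 Itgbl1 cells, which were at 315 (253 to 388) and 232 CPM (209 to 257). Penk Plau cells, at 195 (187 to 204) and 317 CPM (304 to 331), were below the Wif1 Itgbl1 cells in ApcMin and above them in VApcMinL. Glial-like cells, the support cells of the enteric nerves, had 634 CPM (501 to 791) and 577 CPM (530 to 627), and epithelial-like cells had 222 CPM (204 to 240) and 575 CPM (562 to 588). The neighbouring paralog *Aldh1a7* shared 0 of the 471 runs of 30 bases in the last 500 bases of the longest *Aldh1a1* transcript, the part that 3′ counting reads.

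Each population thus had its own mix of the 3 enzymes. Because 3′ counting gives 1 UMI per captured molecule whatever the length of the RNA, the mix can be given as a share of the *Aldh1a* UMIs. *Aldh1a3* made up 79.3% and 80.8% of them in Mmp10 Fgfr2 cells, 61.3% and 78.4% in Adamdec1 Edil3 cells, and 59.3% and 63.7% in Scg2 Fibin cells. *Aldh1a1* made up 94.6% and 86.7% in Wif1 Itgbl1 cells, 96.2% and 97.8% in epithelial-like cells and 88.6% and 87.1% in glial-like cells. *Aldh1a2* made up 81.5% and 78.4% in mesothelial-like cells. In Penk Plau cells the mix differed between the libraries, with 50.4% and 21.9% *Aldh1a2* against 45.4% and 71.8% *Aldh1a1*. Over all fibroblast-like cells, the 3 genes gave 28.9%, 33.3% and 37.8% in ApcMin and 23.7%, 15.5% and 60.8% in VApcMinL, in the order *Aldh1a1*, *Aldh1a2*, *Aldh1a3*.

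**Figure D3:**
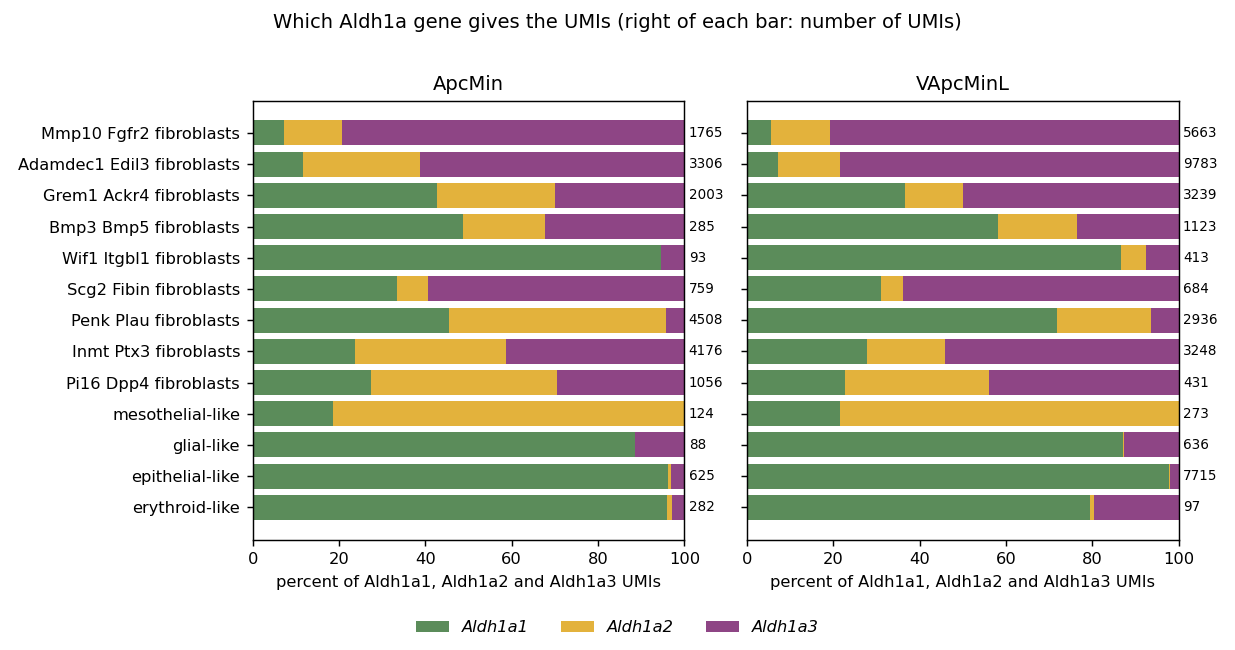
Share of the *Aldh1a* UMIs that come from *Aldh1a1* (green), *Aldh1a2* (yellow) and *Aldh1a3* (purple) in each population, ApcMin left and VApcMinL right, with the number of UMIs beside each bar. The purple share goes from 79.3% and 80.8% in Mmp10 Fgfr2 cells to 0 in mesothelial-like cells, and the green share is over 90% in epithelial-like cells of both libraries.

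Single cells often carried several of the enzymes. With every cell thinned to 3000 UMIs, at least 2 of the 3 *Aldh1a* genes were found in 59.4% and 60.3% of the Mmp10 Fgfr2 cells, 44.8% and 48.0% of the Adamdec1 Edil3 cells and 18.3% and 27.9% of all fibroblast-like cells. *Aldh1a3* and *Lrat* were found together in 7.65% and 16.3% of the fibroblast-like cells, against products of the single shares of 3.56% and 10.5%. Within the Mmp10 Fgfr2 cells the joint share was 67.7% and 61.6% against products of 67.4% and 62.1%, where the smaller of the single shares, which bounds the joint share, was 71.9% and 65.6%. Over all fibroblast-like cells, *Aldh1a2* and *Cyp26b1* were found together in fewer cells than the product, 0.126% against 0.604% and 0.224% against 0.506%. These are small numbers of cells. Most *Cyp26b1* UMIs of the class lay in the Inmt Ptx3 and Scg2 Fibin subsets, and the pair is not given within subsets here. Whether single cells keep the 2 genes apart is therefore not shown. Cells of a library share its free RNA and depth, and these shares are descriptions.

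The genes that act after synthesis were rare in fibroblasts. *Crabp1* (chromosome 9, 54764748 to 54773110, plus strand), which encodes a binding protein for retinoic acid in the cytoplasm, had 8 and 28 UMIs in all cells, every one of them in fibroblast-like cells. In VApcMinL, 19 lay in Wif1 Itgbl1 cells and 6 in Scg2 Fibin cells, and in ApcMin neither subset had any. The 20 ApcMin Wif1 Itgbl1 cells allow a level of up to 13.2 CPM, against 12.3 CPM (7.41 to 19.2) in the 112 VApcMinL cells, so a difference was not detectable at this depth.

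*Cyp26b1* (chromosome 6, 84571414 to 84593908, minus strand), which encodes an enzyme that degrades retinoic acid, had its highest levels in the endothelium. Fibroblast-like cells held 73.8% and 27.2% of its UMIs, at a lower level. In the 33 and 151 lymphatic endothelial-like cells it was at 266 (209 to 334) and 319 (286 to 354) CPM. Blood endothelial-like cells had 89.3 CPM (68.9 to 114) and 260 CPM (242 to 280), a ratio of 2.92 (2.26 to 3.82). After thinning, 20.2% and 41.98% of the blood endothelial-like cells had a *Cyp26b1* UMI, and the raw shares were 31.7% and 53.8%. Among fibroblast-like subsets only Scg2 Fibin, with 51.0 CPM (40.9 to 62.7) and 41.0 CPM (30.6 to 53.9), and Inmt Ptx3, with 25.7 CPM (22.8 to 28.8) and 34.0 CPM (30.1 to 38.3), lay above the empty droplets, at 6.64 and 9.69 CPM, in both libraries beyond counting error. The cells highest in *Cyp26b1* were near the lowest for synthesis, with *Aldh1a1*, *Aldh1a2* and *Aldh1a3* together at 3.60 and 16.1 CPM in lymphatic and 6.87 and 28.1 CPM in blood endothelial-like cells.

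Of the 9 genes listed only as responding to retinoic acid, *Tgm2*, a transglutaminase, was highest in the lymphatic endothelium, at 597 and 457 CPM. Its mean over both libraries was 527 CPM there, against 475 CPM in Mmp10 Fgfr2 cells. The other 8 were highest in other populations. How many of all genes are highest in the lymphatic endothelium was not counted, so nothing is read from the number of listed genes there. *Rarb*, *Dhrs3*, *Cyp26a1* and *Stra6* are listed as responding too, but were counted under another role. By the mean of both libraries, *Rarb* and *Dhrs3* were also highest in the lymphatic endothelium, and *Cyp26a1* and *Stra6* in epithelial-like cells. *Rarb* was singled out after its values were seen. *Rarb*, a retinoic acid receptor, was at 111 (75.7 to 158) and 95.8 (78.5 to 116) CPM in the lymphatic endothelium and 81.3 and 57.3 CPM in glial-like cells, against 7.12 and 8.42 CPM in fibroblast-like cells. *Dhrs3*, which turns retinal back to retinol, was at 198 (149 to 257) and 305 (274 to 340) CPM in the lymphatic endothelium and at 219 and 262 CPM in glial-like cells. *Rarb* is the textbook case of a promoter that retinoic acid receptors bind through a direct repeat, and its repeat is shown as the sequence by which such a gene is recognised. The 30 bases below come from the RefSeq promoter of *Rarb* on GRCm38.p6 (chr14:16575506-16575535, minus strand), 59 to 30 bases before the RefSeq start and inside an exon of longer GENCODE transcripts, with both copies of GTTCA in capitals.
Rarb: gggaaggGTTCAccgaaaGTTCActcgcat
GTTCA repeated after 6 other bases, searched on both strands over the 250 bases before the start, was in 22 of 32851 RefSeq promoters (0.067%). That is a count of matching letters, and binding by the receptors was not tested. The pattern was in none of the promoters of the 7 genes with an entry, *Aldh1a1*, *Aldh1a2*, *Crabp1*, *Cyp26b1*, *Lrat*, *Rbp4* and *Stra6*, which says only that these letters are not in those windows.

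The genes were low in immune cells. In the 1458 and 1128 B-, plasma-, T or ILC- and myeloid-like cells, *Aldh1a1* was at 2.65 and 7.01 CPM against 33.2 and 163 CPM in the empty droplets, and *Aldh1a3* at 1.80 and 9.09 CPM against 57.8 and 102 CPM. *Rdh10* was at 5.13 and 5.58 CPM against 18.5 and 25.6 CPM. *Aldh1a2*, an enzyme that gut dendritic cells are known to use, was highest in myeloid-like cells among these, at 3.62 and 3.12 CPM against 24.1 and 23.1 CPM. Thinned shares were alike low, at most 1.51% in ApcMin and 2.04% in VApcMinL, whereas 30.1% and 35.5% of the fibroblast-like cells had an *Aldh1a1* UMI. Empty droplets hold free RNA alone, which made up an estimated 4.26% or less of the UMIs in each of these classes, so a level below theirs does not show whether the cells' own RNA took part. The sort against CD45 removed most immune cells, so that these are leftovers. Erythroid-like cells had 21.7 and 27.1 CPM of *Aldh1a1*.

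Epithelial-like cells differed from fibroblasts in nearly every step. Of their *Aldh1a1*, *Aldh1a2* and *Aldh1a3* UMIs together, *Aldh1a1* gave 96.2% and 97.8%. *Aldh1a7*, also listed under retinal oxidation, was at 21.4 and 47.4 CPM in these cells. *Adh1*, listed among the enzymes of retinol and retinal, was at 160 and 520 CPM. *Lrat* had 13.3 CPM (9.30 to 18.4) and 25.8 CPM (23.1 to 28.7), and *Rdh10* had 107 CPM (94.7 to 120) and 30.5 CPM (27.6 to 33.6). *Rbp4* and *Cyp26b1* were at 2.58 CPM or less. Their carrier was *Rbp2*, the retinol-binding protein of absorbing enterocytes, at 3856 and 10349 CPM. *Lef1*, the deleted gene, had 22 and 29 UMIs in epithelial-like cells, or 8.12 and 2.21 CPM, and the 3′ counts do not show whether these RNAs lack the deleted part.

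Between the libraries, *Aldh1a3* was the gene that stood apart in fibroblast-like cells. Its level was 158 CPM (155 to 162) in ApcMin and 423 CPM (416 to 429) in VApcMinL, a ratio of 2.67 (2.59 to 2.74). *Rdh10* followed with 59.1 and 104 CPM, a ratio of 1.76 (1.67 to 1.85). *Aldh1a1* was 1.36 times (1.31 to 1.41) and *Lrat* 1.31 times (1.25 to 1.36) as high in VApcMinL. *Aldh1a2* was lower there, at 140 and 108 CPM, a ratio of 0.770 (0.741 to 0.801). *Rbp4* at 1.11 (1.03 to 1.19) and *Cyp26b1* at 1.05 (0.919 to 1.20) were close to 1. Of the 7 genes with 200 or more UMIs in this class, 1 was at least 2-fold higher and 0 were at least 2-fold lower, where 2.6% and 0.737% of all 11671 genes with that many UMIs were. The median log2 ratio of the 7 was 0.39, which is that of *Lrat*, against 0.00044 over all genes. *Stra6* and *Crabp1* had too few UMIs to be counted.

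A part of these ratios moved with the make-up of the fibroblast-like class, in which the Mmp10 Fgfr2 and Adamdec1 Edil3 shares were larger in VApcMinL. With the subsets given the same weights in both libraries, the *Aldh1a3* ratio was 1.66. The change of weights alone, from the ApcMin to the VApcMinL shares at the ApcMin level of each subset, gave 1.68. *Rdh10* came to 1.20, with 1.53 from the weights alone. *Lrat* turned to the other side, at 0.706, with 1.92 from the weights alone. *Aldh1a1* came to 1.34, *Aldh1a2* to 0.700, *Cyp26b1* to 1.33 and *Rbp4* to 1.04, with 1.04, 1.05, 0.747 and 0.962 from the weights alone. With 1 library per genotype, the shares of the subsets cannot be told apart from how the tissue was dissociated and sorted.

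Within single subsets the direction was the same for *Aldh1a3* and not for the others. Its ratio was above 1 beyond counting error in 8 of the 8 subsets with at least 50 UMIs, from 1.19 (1.12 to 1.26) in Mmp10 Fgfr2 to 2.096 (1.996 to 2.203) in Adamdec1 Edil3 and 2.309 (2.101 to 2.54) in Grem1 Ackr4. *Lrat* was below 1 in 3 of 5 subsets, namely Mmp10 Fgfr2 at 0.637 (0.586 to 0.692), Grem1 Ackr4 at 0.663 (0.613 to 0.716) and Adamdec1 Edil3 at 0.729 (0.682 to 0.778), and above 1 in the other 2. *Aldh1a2* was below 1 in 5 of 8 subsets, the lowest being Penk Plau at 0.446 (0.408 to 0.487), and above 1 in Mmp10 Fgfr2 and Bmp3 Bmp5. *Rdh10* was above 1 in 6 of 9 subsets and below 1 in Mmp10 Fgfr2 and Scg2 Fibin. *Aldh1a1* was above 1 in 4 of 9, the highest being Bmp3 Bmp5 at 2.32 (1.93 to 2.80). *Rbp4* was above 1 in 2 of 7 subsets and below 1 in 2. Its ratios ran from 0.47 (0.38 to 0.60) in Bmp3 Bmp5 to 5.55 (3.06 to 11.2) in Wif1 Itgbl1. *Cyp26b1* was above 1 in 1 of 3 subsets and below 1 in 0. Free *Aldh1a3* RNA was also higher in VApcMinL, at 102 against 57.8 CPM in empty droplets, and subtracting the estimated free RNA left its ratio at 2.67.

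**Figure D4:**
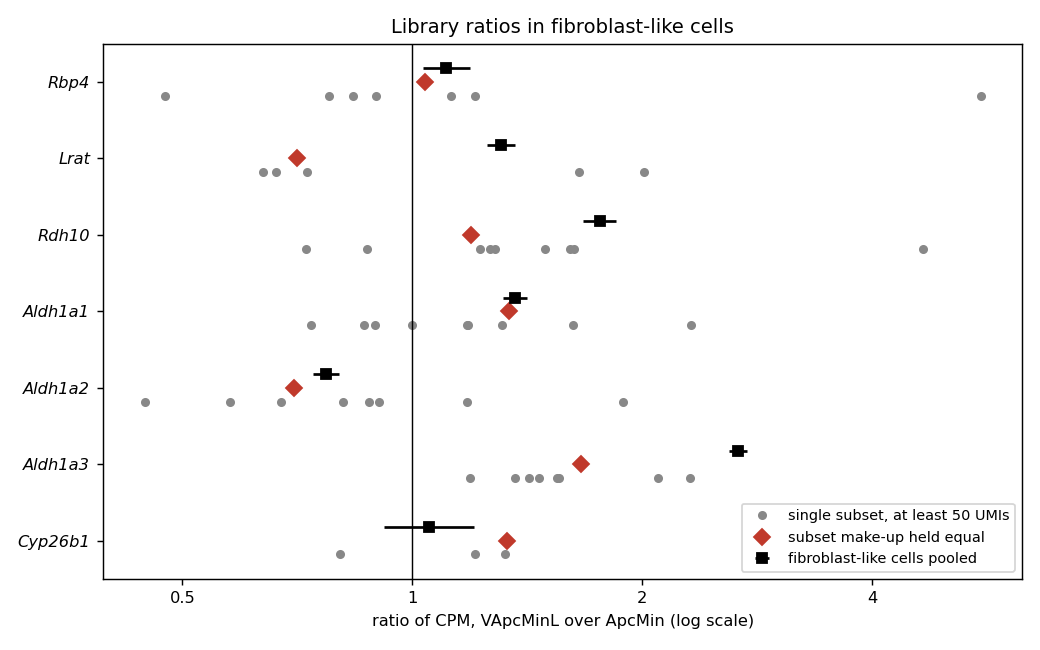
Ratio of CPM, VApcMinL over ApcMin (log scale), for the 7 genes that reach 200 UMIs in this class. Black squares are all fibroblast-like cells with 95% counting intervals, red diamonds the ratio with equal subset weights, and grey points the single subsets with at least 50 UMIs, leaving out hemoglobin-rich cells. *Lrat* lies right of 1 when pooled and left of it at equal weights, and every *Aldh1a3* value lies right of 1.

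Of 52 further genes of vitamin A handling, 28 had enough UMIs in fibroblast-like cells, and their median log2 ratio was 0.15. Only *Rbp2* passed 2-fold, at 3.53 and 67.7 CPM, a ratio of 19.2 (16.3 to 22.7), and none was 2-fold lower. *Rbp2* moved together with epithelial RNA, being at 122 and 3271 CPM in the empty droplets and at 1.37 and 117 CPM in blood endothelial-like cells, and the part of free RNA in its ratio was not tested further. *Lpl*, a lipase that frees fatty acids and retinol from chylomicrons, was at 892 and 633 CPM in fibroblast-like cells. Among enzymes of retinol and retinal, *Adh1* was at 121 and 182 CPM and *Dhrs3* at 69.7 and 71.6 CPM. The 10 such enzymes counted ranged in ratio from 0.818 to 1.51.

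The receptors differed less between the libraries. *Rara* was at 41.5 and 36.9 CPM and *Rxra* at 30.6 and 35.2 CPM in fibroblast-like cells, and the 5 receptors counted ranged in ratio from 0.785 to 1.18. *Fabp5*, which carries retinoic acid and fatty acids, was at 8.79 and 13.0 CPM, and *Crabp2* at 0.870 and 1.48 CPM. *Cyp26a1*, another enzyme of breakdown, had 0 and 4 UMIs, *Aldh8a1* 7 and 14 and *Aldh1a7* 1 and 9. *Bco1*, which cleaves beta-carotene, and *Bco2* had 14 and 36 and 10 and 15 UMIs. Of genes listed only as responding to retinoic acid, *Rarres2* was at 872 and 1083 CPM and *Meis2* at 285 and 258 CPM. The 6 of these that were counted ranged in ratio from 0.904 to 1.28.

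The genes whose levels ran most like those of each pathway gene were found by Pearson's correlation of log2(CPM + 1) over 44 points, the 22 populations of both libraries, among 13520 genes. The points share libraries and the same cell types, and the values are descriptions. *Aldh1a3* ran with *Lpar1* (0.88), *Robo2* (0.87) and *Sfrp1* (0.87), a secreted Wnt inhibitor. *Lrat* ran with *Adamts17* (0.90), *Ereg* (0.89), an EGF family ligand, and *Scube1* (0.88). *Rdh10* ran with *Aldh1a2* (0.83), *Plekhh2* (0.82) and *Wnt5a* (0.82), and it is the only pathway gene that had another of the 9 among its nearest 3. *Aldh1a2* ran with *Chrd* (0.87), an antagonist of BMPs, *Ccbe1* (0.86) and *Bnc2* (0.85), and *Aldh1a1* with *Gpc4* (0.82), *Akr1b8* (0.80), itself a retinal reductase, and *F3* (0.80). *Rbp4* ran with *Steap3* (0.86), *Col4a5* (0.85) and *Bdh2* (0.85), *Cyp26b1* with the endothelial genes *Arhgef15* (0.82) and *Gpr4* (0.81) and with *Kif26a* (0.78), and *Stra6* with *Tff1* (0.89), *Gm11437* (0.88) and *Cldn2* (0.84).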

How the data were processed

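Each genotype had 1 library, of which the authors deposited raw UMI counts per gene and barcode, without normalization or cell calling. They aligned the reads to mm10 (GRCm38) with Cell Ranger, 2.1.1 per the submitters' processing notes and 3.1.0 per the file headers. Cells were filtered as given with the results. Doublets were scored with Scrublet (scanpy 1.11.5) and the highest scores left out at 0.8% per 1000 cells, since the caller's own threshold marked 0 and 79 cells. Seurat 5.3.0 (R 4.3.3) integrated the libraries on 2000 genes and 30 dimensions, without the pathway genes, and clustered them on 20 principal components at resolution 0.2, and the fibroblast-like cells again at 0.3. Clusters were named from marker genes when at least 3 were found in 25% of the cells. Empty droplets are barcodes of ranks 45000 to 90000. UMIs were summed per population and library, divided by the population's total and scaled to CPM. The functions were tested on simulated counts. The scripts used scipy 1.17.1, pandas 2.3.3 and numpy 2.4.6 in Python 3.11.15, with matplotlib 3.10.9 for plots. Genes named are the 9 listed, the 3 most alike for each with at least 200 UMIs, and, of the other pathway genes, the 2 highest per role and those past 2-fold, of which 1 gene is not reported here. *Rarb*, *Tgm2*, *Lef1*, *Pdgfra*, *Myh11* and the genes that split the epithelial-like cells were added after their values were seen. The genes, lists and markers were chosen with earlier results of these data known. Gene positions are from GENCODE vM21, and 7 of the 9 genes matched a RefSeq promoter entry.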

Additional observations from a re-analysis of the deposited data

How the results depend on the processing

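No paired analysis was possible because there is just 1 library of each genotype. The fibroblast-like ratios of *Aldh1a1* (1.25 to 1.37), *Aldh1a2* (0.700 to 0.835), *Aldh1a3* (1.66 to 2.82) and *Rdh10* (1.20 to 1.78) kept their side of 1 under every alternative run. *Lrat* turned to 0.706 with equal subset weights, where the number of genes at least 2-fold higher fell from 1 to 0, and *Rbp4* turned to 0.965 with every cell weighing the same. *Cyp26b1*, at 0.951 to 1.33, held 1 within its counting interval in the pooled class. Leaving out hemoglobin-rich cells, and leaving hemoglobin and immunoglobulin genes out of the total, were chosen after seeing the data and moved no ratio beyond its counting error. Of 8 genes, 7 kept their leading class at resolution 0.5, where *Aldh1a3* was highest in smooth muscle-like cells, and 3 kept it when each cell was named from its own markers, where *Aldh1a3*, *Lrat*, *Rbp4* and *Rdh10* were highest in smooth muscle-like and *Aldh1a1* in epithelial-like cells. Of 7 genes, 6 were highest in mostly the same fibroblast-like cells at subset resolution 0.6 and 6 without integration. The exception was *Aldh1a2*, then highest in 76 or 77 cells at 311 or 308 CPM, none of them Mmp10 Fgfr2 cells. The depth limits *Crabp1* and *Stra6*, and the smallest populations.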

Other observations

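The epithelial-like cells that the sort left hold a small set in which vitamin A handling differs from the rest. This set was chosen after values were seen, as the cells with a UMI of both *Axin2* and *Notum*, genes that Wnt signalling induces and that adenoma cells of ApcMin mice are known to express, and it numbers 8 ApcMin and 15 VApcMinL cells. These held 100% and 96.2% of the epithelial *Stra6* UMIs, at 148 CPM (127 to 172) and 51.9 CPM. Without the ApcMin cell that held 158 UMIs, the ApcMin level was 13.5 CPM. The VApcMinL level still includes the single cell with most of that library's *Stra6* UMIs, so 13.5 and 51.9 CPM are not comparable. The set held 86.5% and 24.0% of the epithelial *Rdh10* UMIs. Its *Rdh10* level was 218 and 64.7 CPM, against 24.9 and 26.1 CPM in the other 35 and 286 epithelial-like cells. The ApcMin cell of most *Stra6* UMIs also held 101 *Rdh10* UMIs, and without it the ApcMin level of the set was 168 CPM. *Aldh1a1* went the other way, at 5.23 and 17.5 CPM in these cells and 381 and 646 CPM in the others. *Rbp2* was at 0.872 and 217 CPM in them and at 6684 and 11640 CPM in the others, which also carried the enterocyte gene *Alpi* at 308 and 337 CPM, against 0 and 14.1 CPM. *Lef1* had 22 of its 22 and 26 of its 29 epithelial UMIs in these cells, or 19.2 and 17.5 CPM. Their median depth was 111200 and 55800 UMIs, against 44300 and 41710 UMIs in the other epithelial-like cells. Whether several cells shared a droplet was not tested.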
